A study of Rattus norvegicus with 10 samples.

Results

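Astrocyte genes were followed across 5 regions of the rat brain on single-colour oligonucleotide arrays. The genes were Gfap, Vim, Agt, Clu, Aqp4, Glul, Slc1a2, Slc1a3 and S100b, and every probe set annotated to one of these symbols alone was taken. Of the 9 genes, 8 had such a probe set, among 4736 genes with a symbol of their own on the array. Together they had 18 of the 8740 probe sets left once control probe sets were set aside. No probe set carried the symbol Gfap alone, so Gfap, the filament protein most often used to mark astrocytes, is not analysed here. Of the 18 probe sets, 15 lay among the 5244 that were bright enough to be tested. Total RNA came from the ventral tegmental area, the nucleus accumbens, the caudate putamen, the prefrontal cortex and the amygdala. Every one of these was measured on 1 array of cocaine-treated rats and 1 array of saline-treated control rats. The sources used here give no strain, age or sex of the rats, no dose, route or timing of cocaine, and no number of animals behind an array. Values are expression indices of dChip, which sums up the probes of a probe set with a fitted model. The index of one probe set cannot be set against that of another.

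Astrocytes are the glial cells that take up released glutamate and potassium, supply neurons with metabolites, cover blood vessels with their endfeet and secrete proteins into the extracellular space. The genes followed here stand for different sides of that work. Vim encodes vimentin, an intermediate filament protein that builds the astrocyte cytoskeleton together with Gfap and is also made by endothelial, ependymal and meningeal cells. Agt encodes angiotensinogen, the precursor of angiotensin peptides, which in the brain comes mainly from astrocytes. Clu encodes clusterin, a secreted chaperone. Slc1a2 and Slc1a3 encode the glutamate transporters GLT-1 and GLAST, and Glul encodes glutamine synthetase, which turns the glutamate taken up into glutamine. Aqp4 encodes the water channel of astrocyte endfeet, and S100b encodes a calcium-binding protein made by astrocytes and by some oligodendrocytes. Cocaine blocks the reuptake of dopamine, and the sampled regions hold dopamine neurons or receive their axons. In tissue RNA, fewer cells of a type and less RNA per cell cannot be told apart.

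The arrays had median indices between 2208 and 2309, and their highest indices lay between 45594 and 64907. Over the tested probe sets, the correlation r between cocaine and saline arrays was 0.940 in the amygdala, 0.953 in the prefrontal cortex, 0.978 in the ventral tegmental area, 0.988 in the nucleus accumbens and 0.992 in the caudate putamen. Exact zeros, which were treated as missing, numbered between 8 and 226 per array, with 226 on the cocaine array and 18 on the saline array of the prefrontal cortex. The regional labels were checked with marker genes. Th, the enzyme that begins dopamine synthesis, had an index of 7544 with cocaine and 6363 with saline in the ventral tegmental area, against 2599 to 2884 on the other arrays. Drd1, a dopamine receptor of striatal neurons, lay between 8166 and 11001 on the 4 arrays of the caudate putamen and nucleus accumbens, against at most 3228 elsewhere. Slc6a3, the dopamine transporter, did not set the ventral tegmental area apart on both arrays: it had 4552 with cocaine and 3268 with saline there, against 2977 to 3756 on the other arrays. Cck, a neuropeptide abundant in cortex, had 27640 with cocaine and 28113 with saline in the prefrontal cortex, against 4161 to 20542 elsewhere.

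RefSeq promoter windows, running from 250 bases before to 50 bases after an annotated start on the build GRCr8, are shown for Vim and S100b because Vim and 1 of the 2 S100b probe sets stood higher in the ventral tegmental area than in the other regions. Agt and Clu, which were also higher there, had no window in the table used. The Vim window is chr17:81577011-81577310 on the plus strand and the S100b window is chr20:12381032-12381331 on the minus strand. Both are written 5′ to 3′. Capitals mark matches, on either strand, of the TATA box core TATAAA, of the CCAAT box (its letters are its name) and of the GC box core GGGCGG.
Vim: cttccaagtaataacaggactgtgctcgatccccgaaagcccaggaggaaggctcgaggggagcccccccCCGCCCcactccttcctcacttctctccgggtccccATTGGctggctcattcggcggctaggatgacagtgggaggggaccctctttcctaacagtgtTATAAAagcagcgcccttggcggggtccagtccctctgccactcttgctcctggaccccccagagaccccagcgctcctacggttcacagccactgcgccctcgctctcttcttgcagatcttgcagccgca
S100b: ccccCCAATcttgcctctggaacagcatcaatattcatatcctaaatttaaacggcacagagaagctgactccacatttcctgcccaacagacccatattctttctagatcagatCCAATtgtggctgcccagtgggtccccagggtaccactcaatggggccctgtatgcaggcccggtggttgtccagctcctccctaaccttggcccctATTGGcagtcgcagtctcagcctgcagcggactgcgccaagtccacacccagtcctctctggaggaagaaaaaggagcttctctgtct
The Vim window held 1 match of each of the 3 motifs, with TATAAA at -82 from the annotated start, and the CCAAT box at -144 and GGGCGG at -180 on the reverse strand. The S100b window held 3 matches of CCAAT, at -246, -135 and -38, and no match of the other 2 motifs. Of 33469 rat promoter windows of the same length, TATAAA occurred in 14.2%, CCAAT in 37.5% and GGGCGG in 33.1%. Neither window held TGANTCA, the letters of an AP-1 site, found in 7.33% of windows, or TTCNNNGAA, a palindrome of the kind STAT factors bind, found in 8.87%. None of these matches overlapped another. A match is a string of letters in the window and not a measured binding site.

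The first comparison asked whether the astrocyte genes differ in level among regions, and the main differences set the ventral tegmental area apart. Agt, Vim, Clu and 1 of the 2 tested probe sets of S100b were higher there than in the mean of the other 4 regions, by 3.35-fold, 2.13-fold, 1.47-fold and 1.26-fold. The genes of glutamate handling had no call in the ventral tegmental area: Glul was lowest in the caudate putamen, and Slc1a2 and Slc1a3 passed no test among regions. In limma's F test across the 5 regions, 3 of the 15 tested probe sets passed an adjusted p of 0.05, against 9.31% of all probe sets tested. These were the probe sets of Agt and Vim and 1 of the 4 of Glul. The numbers of arrays limit the precision throughout, and no label says whether arrays stand for separate animals. The p-values reflect the spread left between arrays after region and treatment. That spread may be technical, and it would include any cocaine difference particular to a region.

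Agt had the largest regional range of the astrocyte genes measured. In the ventral tegmental area its index (probe set rc_AA943892_at) was 22323 on the cocaine array and 23769 on the saline array. In the amygdala it was 7749 with cocaine and 7216 with saline, and in the nucleus accumbens 7652 with cocaine and 9637 with saline. The caudate putamen had 5578 with cocaine and 5936 with saline, and the prefrontal cortex had 6451 with cocaine and 5669 with saline. Both ventral tegmental arrays thus lay above each of the other 8 arrays, with no overlap and a gap far wider than that between the arrays of any region. The log2 difference of the ventral tegmental area from the mean of the other regions was 1.74 ± 0.11 (SE, limma adjusted p = 0.000115). It remained past the threshold under each of 17 alternative settings, with adjusted p of at most 0.00668. In this region 4 of the 15 tested probe sets were called higher, against 7.86% of all probe sets, and 0 were called lower, against 3.25%. In both directions together 11.1% of all probe sets were called there.

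The lower end of the Agt range also held a difference. Agt was 1.69-fold lower in the caudate putamen than in the mean of the other regions (log2 difference -0.76 ± 0.11, limma adjusted p = 0.00757) and 1.59-fold lower in the prefrontal cortex (-0.67 ± 0.11, limma adjusted p = 0.0145). Since the ventral tegmental area enters both means, pairs of regions were also compared. The ventral tegmental area exceeded the caudate putamen 4.003-fold, the prefrontal cortex 3.81-fold, the amygdala 3.08-fold and the nucleus accumbens 2.68-fold (limma adjusted p = 0.000345, 0.000412, 0.000833 and 0.00142). Among the other 4 regions, no pair differed past the threshold for Agt. The nearest was the caudate putamen below the nucleus accumbens, with a log2 difference of -0.58 ± 0.13 (limma adjusted p = 0.0613). The call for the caudate putamen was lost without either of its own arrays (adjusted p = 0.184 without the cocaine array and 0.196 without the saline array). The call for the prefrontal cortex was lost without its saline array (0.0891), without the cocaine (0.0594) or saline (0.0629) array of the caudate putamen, and for both regions the call was lost with no filter on dim probe sets (0.0549 and 0.0809).

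**Figure D1:**
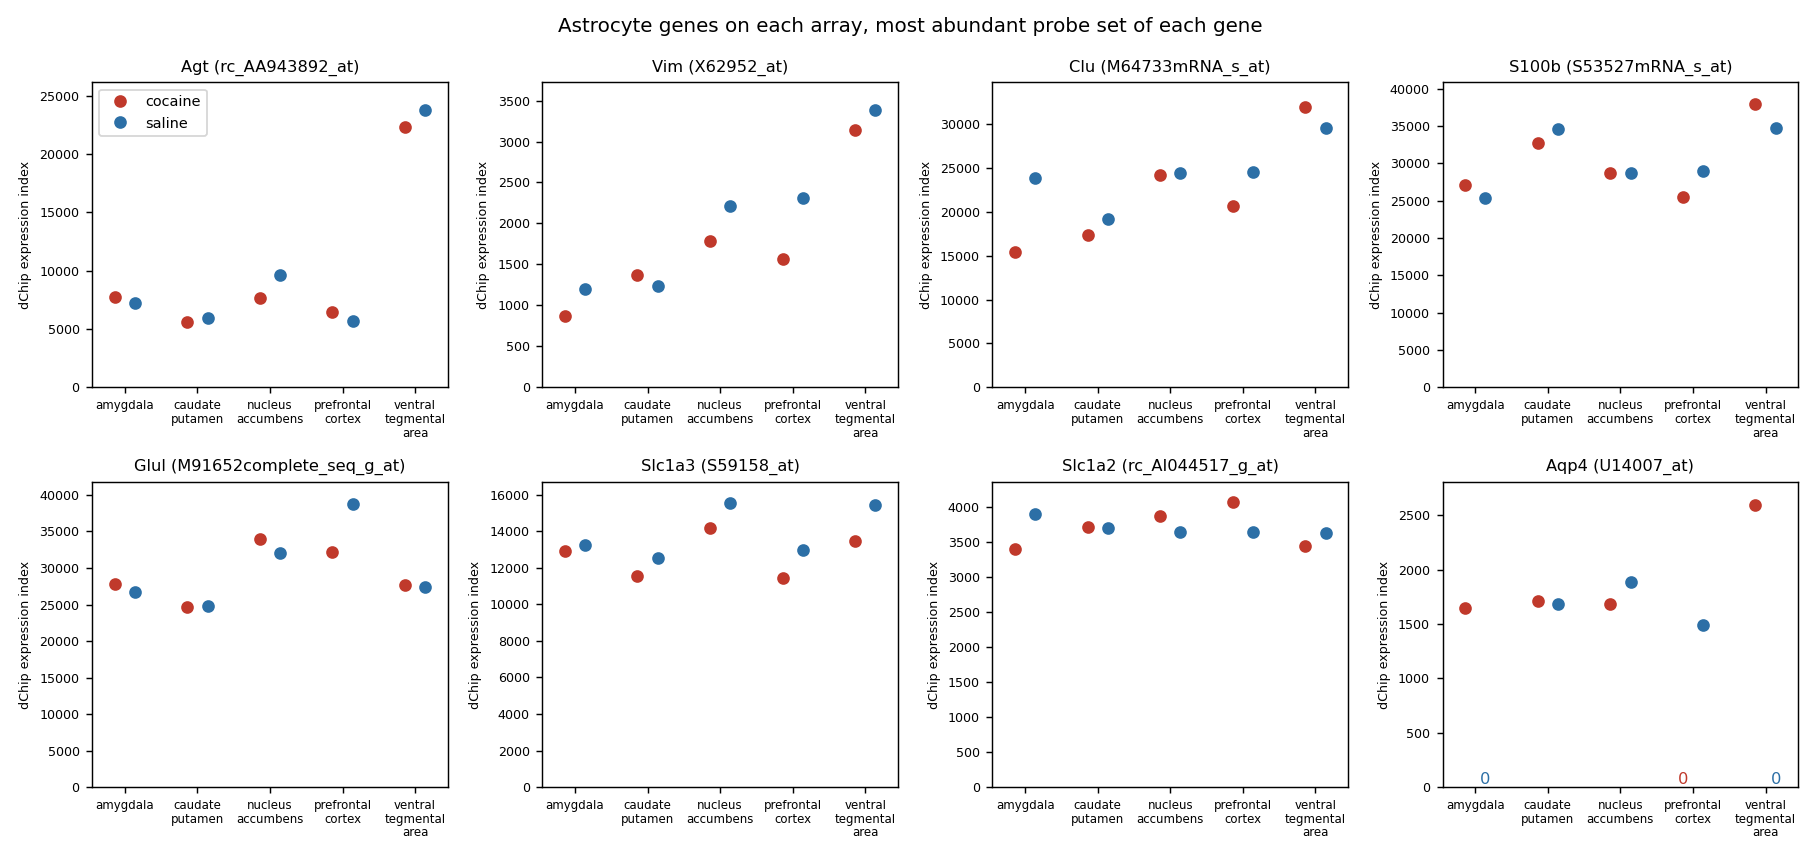
dChip expression index (y axis, linear, from 0) of the most abundant probe set of each astrocyte gene on each array, by region (x axis), with cocaine arrays in red to the left of saline arrays in blue. Agt and Vim stand highest on both arrays of the ventral tegmental area, and Aqp4 is listed at 0 on 3 arrays.

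Vim showed a gradient over regions with a high end in the ventral tegmental area and a low end in the amygdala. Its index (X62952_at) was 3137 with cocaine and 3386 with saline in the ventral tegmental area. It was 872 with cocaine and 1199 with saline in the amygdala, and 1372 with cocaine and 1235 with saline in the caudate putamen. The nucleus accumbens had 1790 with cocaine and 2208 with saline, and the prefrontal cortex had 1567 with cocaine and 2305 with saline. The ventral tegmental arrays did not overlap the other 8, and the amygdala arrays were the lowest pair, both below every array outside their region. The cocaine amygdala value lay under the floor of 1028 to which low values were raised before testing, so that amygdala differences are set partly by the floor.

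For Vim the ventral tegmental area exceeded the other regions' mean 2.13-fold (log2 difference 1.09 ± 0.13, limma adjusted p = 0.00180). This call held in the 15 of 17 alternative settings in which Vim was bright enough to be tested. Vim's mean index, with low values at the floor, was 1923, just above the brightness cut of 1827, and its ventral tegmental arrays were its highest. Without either of them the mean falls under that cut, so the call was not checked with its own arrays left out. The amygdala was 1.802-fold lower (-0.85 ± 0.13, limma adjusted p = 0.0379), the only astrocyte probe set called there, against 0.612% of all probe sets called there and 0.21% called lower. In pairs, Vim in the ventral tegmental area exceeded the amygdala 2.93-fold, the caudate putamen 2.50-fold and the prefrontal cortex 1.71-fold (limma adjusted p = 0.00275, 0.00515 and 0.0482). The excess over the nucleus accumbens missed the threshold, with a log2 difference of -0.71 ± 0.17 for the nucleus accumbens minus the ventral tegmental area (limma adjusted p = 0.0655). The amygdala also lay below the nucleus accumbens by 1.79-fold and the prefrontal cortex by 1.71-fold (limma adjusted p = 0.0359 and 0.0487). The amygdala call against the mean was lost without its cocaine array (0.0604), without the cocaine (0.130) or saline (0.107) array of the caudate putamen, and without the cocaine (0.160) or saline (0.176) array of the nucleus accumbens. It was also lost with each array scaled to one median (0.0555), with quantile normalization (0.0557), with zeros raised to the floor (0.0871) and with no filter (0.219).

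Clu, the secreted chaperone, had an index (M64733mRNA_s_at) of 31929 with cocaine and 29497 with saline in the ventral tegmental area. The other 8 arrays lay between 15376 and 24538, so the groups did not overlap. The log2 difference was 0.55 ± 0.13 (limma adjusted p = 0.0333). In pairs the largest was the ventral tegmental area over the caudate putamen, 1.68-fold, which missed the threshold (limma adjusted p = 0.0550), and the F test across regions gave an adjusted p of 0.0976. The call was lost in 10 of 17 alternative settings. Among these were leaving out the cocaine (0.467) or saline (0.0889) array of the ventral tegmental area itself, the cocaine (0.0923) or saline (0.0983) array of the caudate putamen, the cocaine (0.0650) or saline (0.0874) array of the nucleus accumbens, or the cocaine array of the prefrontal cortex (0.0517).

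S100b was read by 2 probe sets that differed in pattern. The brighter one (S53527mRNA_s_at) had 37907 with cocaine and 34738 with saline in the ventral tegmental area, and 32709 with cocaine and 34658 with saline in the caudate putamen. The other 6 arrays lay between 25294 and 29038. The ventral tegmental area and the caudate putamen therefore stood together above the other 3 regions, and the lowest ventral tegmental value was just above the highest of the caudate putamen. The log2 difference of the ventral tegmental area was 0.33 ± 0.09 (limma adjusted p = 0.0448), and that of the caudate putamen, 0.20 ± 0.09, missed the threshold. The ventral tegmental call was lost in 11 of 17 alternative settings, which included leaving out its cocaine (0.498) or saline (0.162) array, the cocaine (0.135) or saline (0.111) array of the caudate putamen, the cocaine (0.102) or saline (0.106) array of the nucleus accumbens, or the cocaine array of the prefrontal cortex (0.0662). The second probe set (rc_AI146214_at) lay between 5603 and 7420 and was highest in the prefrontal cortex, with 7420 on the cocaine array and 6277 on the saline array. It differed in no region past the threshold, and over the 10 arrays, which share their RNA between the probe sets, the 2 correlated with r of -0.11.

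**Figure D2:**
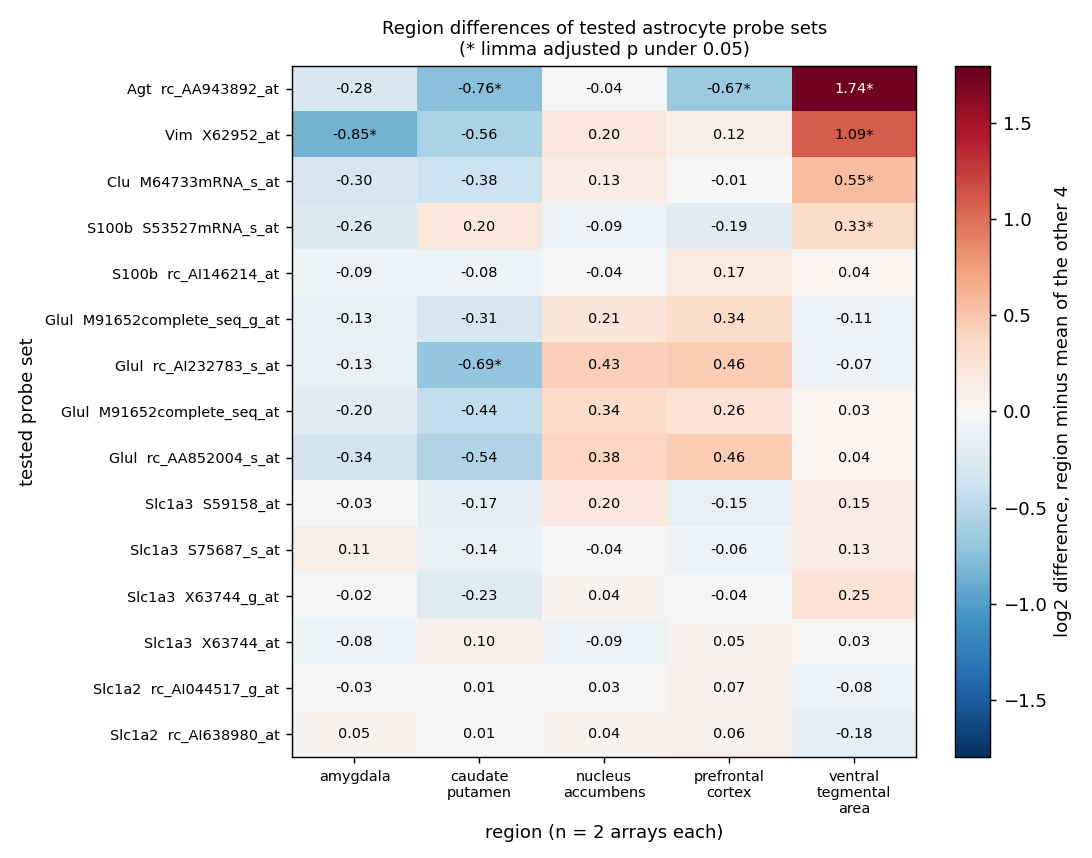
Log2 difference of each region (columns, 2 arrays each) from the mean of the other 4 regions for the 15 tested astrocyte probe sets (rows), in a red to blue colour scale with the value in each cell. Stars mark a limma adjusted p under 0.05: the ventral tegmental area has 4, the caudate putamen 2, the amygdala 1, the prefrontal cortex 1 and the nucleus accumbens 0.

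Glul, which encodes glutamine synthetase, was lowest in the caudate putamen on each of its 4 probe sets and highest in the prefrontal cortex or the nucleus accumbens. On the probe set with the widest range (rc_AI232783_s_at), the caudate putamen had 13093 with cocaine and 15617 with saline. The amygdala had 21921 with cocaine and 17278 with saline, and the ventral tegmental area 20243 with cocaine and 20181 with saline. The nucleus accumbens had 25204 with cocaine and 28108 with saline, and the prefrontal cortex 23268 with cocaine and 31442 with saline. Both caudate putamen arrays lay below the other 8. The caudate putamen was 1.61-fold lower than the mean of the other regions (log2 difference -0.69 ± 0.14, limma adjusted p = 0.0291). With Agt, this made 2 of 15 astrocyte probe sets called lower there, against 2.37% of all probe sets called lower and 4.13% called in either direction.

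In pairs, this Glul probe set was 1.89-fold lower in the caudate putamen than in the prefrontal cortex and 1.86-fold lower than in the nucleus accumbens (limma adjusted p = 0.0279 and 0.0305). The brightest Glul probe set (M91652complete_seq_g_at) gave 24638 with cocaine and 24753 with saline in the caudate putamen, against 32243 with cocaine and 38698 with saline in the prefrontal cortex, 1.43-fold lower (limma adjusted p = 0.0482). Across regions it missed the threshold (F test, limma adjusted p = 0.0743), as did M91652complete_seq_at (0.156) and rc_AA852004_s_at (0.227). The 4 probe sets followed each other over the 10 arrays, with r between 0.85 and 0.96. The caudate putamen call was lost without its own cocaine (0.536) or saline (0.305) array, without the cocaine (0.0839) or saline (0.0967) array of the nucleus accumbens, without the cocaine (0.0821) or saline (0.0750) array of the ventral tegmental area, and in 3 further settings. In the ventral tegmental area Glul was near the mean of the other regions, with log2 differences between -0.11 and 0.04 over its probe sets.

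The glutamate transporters varied little among regions. For Slc1a3, which encodes GLAST, the brightest probe set (S59158_at) lay between 11439 and 15543, with 14193 with cocaine and 15543 with saline in the nucleus accumbens at the high end. The caudate putamen, with 11554 with cocaine and 12555 with saline, and the prefrontal cortex, with 11439 with cocaine and 12978 with saline, lay at the low end. The highest region exceeded the lowest 1.23-fold, and the F test gave an adjusted p of 0.179. The other 3 Slc1a3 probe sets had ranges of 1.11-fold to 1.31-fold between regions, with adjusted p between 0.674 and 0.894. They did not all track each other: X63744_at correlated with S59158_at with r of -0.36 over the 10 arrays, against 0.60 and 0.69 for the other 2. In the ventral tegmental area S59158_at, S75687_s_at, X63744_g_at and X63744_at stood above the mean of the other regions by 0.15, 0.13, 0.25 and 0.03 on the log2 scale. None of these differences passed the threshold (limma adjusted p between 0.299 and 0.970).

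Slc1a2, which encodes GLT-1, the main glutamate transporter of the forebrain, had 4 probe sets. The brightest (rc_AI044517_g_at) lay between 3403 and 4081, and regions differed by at most 1.09-fold, with an adjusted p of 0.955 in the F test. The second (rc_AI638980_at) lay between 2359 and 2818 and was lowest in the ventral tegmental area, with 2393 with cocaine and 2359 with saline, both below the other 8 arrays. Its log2 difference there was -0.18, which missed the threshold (limma adjusted p = 0.256). The remaining 2 were too dim to be tested. One of them (rc_AI044517_at) lay between 1310 and 1710, and the other (U15098_at) between 867 and 1057, with 8 of its 10 values under the floor.

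Aqp4 was also too dim for the test, with a mean of 1816 over its 7 values above 0, just under the cut of 1827. Its index (U14007_at) was 2593 on the cocaine array of the ventral tegmental area and is listed at 0 on the saline array of that region. The amygdala had 1652 with cocaine and is listed at 0 with saline, and the prefrontal cortex is listed at 0 with cocaine and had 1488 with saline. The caudate putamen had 1714 with cocaine and 1687 with saline, and the nucleus accumbens 1687 with cocaine and 1890 with saline. The highest value was in the ventral tegmental area, but it rests on 1 array, and no comparison was made.

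Counted over all pairs of regions, 12 of 150 comparisons of the 15 probe sets passed the threshold, against 3.64% of all such comparisons. Of the 12, Agt and Vim gave 9 and Glul 3. In the prefrontal cortex 1 of the 15 was called lower, against 3.75% of all probe sets called lower and 5.12% called in either direction, and in the nucleus accumbens 0 were called in either direction, against 0.593% called in both directions together. Without the cocaine array of the amygdala, whose correlation with its partner was the lowest, the F test called 8 of the 15, and without the saline array of the amygdala it also called 8. Over all probe sets the count was then 1022 and 1202, against 487 with every array. It called 2 without either array of the caudate putamen or the nucleus accumbens or without the saline array of the prefrontal cortex. It called 1 without either array of the ventral tegmental area. Without such an array the mean of Vim falls under the brightness cut, so Vim could not be called there. Over all probe sets these fits called between 148 and 468.

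A wider list of 65 other astrocyte genes was set beside these, of which 42 were on the array and 34 could be tested among regions. In the ventral tegmental area 8 were higher, against 7.86% of all probe sets, and 1 was lower, against 3.25%, with a median log2 difference of 0.07, against 0.02 over all probe sets tested. The highest were Fabp5, a fatty acid-binding protein (1.97-fold), Dbi, the acyl-CoA-binding protein (1.77-fold), Slc4a4, a sodium bicarbonate cotransporter (1.74-fold), Prdx6, a peroxiredoxin (1.63-fold), and Ntsr2, a neurotensin receptor (1.53-fold). Gstm1, Slc6a11 and Ndrg2 were also higher and Cxcl14, a chemokine, was 1.34-fold lower. Fabp5, for example, had 12978 with cocaine and 14082 with saline in the ventral tegmental area, against 5962 to 7489 on the other arrays. Slc4a4 had 10077 with cocaine and 10589 with saline, against 4283 to 8238. Neither gene overlapped between the groups, but both were named for a small F-test p across regions, so the lack of overlap adds no support.

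In the prefrontal cortex 4 of these other astrocyte genes were lower, Slc4a4, Dbi, Ntsr2 and Fabp5, against 3.75% of all probe sets, and 0 were higher, against 1.38%. The log2 differences were -0.69, -0.63, -0.52 and -0.39. Id3, a transcriptional regulator, was 1.47-fold higher in the caudate putamen, the only one of the 34 called there, against 1.76% of all probe sets called higher, with 6174 with cocaine and 6051 with saline, against 3133 to 5361 elsewhere. Across regions, 6 of the 34 passed the F test, against the 9.31% of all probe sets given above. The summed index of the 38 genes with a value on all arrays was 435359 with cocaine and 431511 with saline in the ventral tegmental area, against 380223 to 428531 on the other arrays. This sum, like the sums of marker lists below, is weighted to the brightest probe sets and does not give each gene an equal part.

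The relatives of the astrocyte genes by function were set beside them as well. Of 9 tested genes of glutamate and glutamine handling, 1 was called higher in the ventral tegmental area (7.86% of all probe sets) and 2 lower (3.25%). In the prefrontal cortex 1 was called lower (3.75%). Glud1, glutamate dehydrogenase, was 1.54-fold higher in the ventral tegmental area and 1.498-fold lower in the prefrontal cortex. Grm3 and Grm5, metabotropic glutamate receptors, were 1.57-fold and 1.31-fold lower in the ventral tegmental area. Of 9 other intermediate filament genes, 1 was called higher in the ventral tegmental area (7.86%) and 1 lower in the caudate putamen (2.37%). Prph, peripherin, was 1.46-fold higher and Ina, alpha-internexin, was 1.52-fold lower. Both are neuronal filament proteins. Of 6 genes of the renin-angiotensin system besides Agt, 0 differed in any region, against 0.593% to 11.1% of all probe sets by region. Ace, the angiotensin-converting enzyme, gave the smallest F-test p of them (limma adjusted p = 0.333). Of 16 tested genes of reactive glia, 1 was called higher in the ventral tegmental area (7.86% of all probe sets). Lgals1, a galectin, was 1.40-fold higher there, with 4395 with cocaine and 3250 with saline, against 2254 to 3157.

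Markers of other cell types also moved with region. Of 10 oligodendrocyte markers, 5 were higher in the ventral tegmental area (7.86% of all probe sets), 3 higher in the caudate putamen (1.76%) and 4 lower in the prefrontal cortex (3.75%). Their summed index was 148611 with cocaine and 134666 with saline in the ventral tegmental area, and 144269 with cocaine and 152163 with saline in the caudate putamen. The other 6 arrays lay between 89584 and 115212, so the brighter S100b probe set was high on the same 4 arrays as these markers. Of 18 hypothalamic and brainstem neuron markers, 6 were higher and 1 lower in the ventral tegmental area (7.86% and 3.25% of all probe sets), where the summed index was 98838 with cocaine and 127130 with saline, against 46399 to 64250. Neuron markers summed to 94616 with cocaine and 93920 with saline in the caudate putamen, against 123710 to 150547 elsewhere, and 7 of 14 were lower there (2.37% of all probe sets). Of the same 14, 3 were higher in the ventral tegmental area (7.86%), while 4 were higher in the prefrontal cortex (1.38%). The 3 were Vsnl1 (1.68-fold), Gap43 (1.53-fold) and Uchl1 (1.42-fold), high in the same region as Agt, Vim and Clu. The part of these cell types in the astrocyte gene differences was not tested.

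The cell types that also make Vim or Clu were looked at in the same way. Of 8 microglia, 14 endothelial, mural and blood cell and 10 meningeal markers, 0 differed in any region. The share of all probe sets called was 0.593% to 11.1% by region. The summed endothelial, mural and blood cell index was 113795 with cocaine and 98119 with saline in the ventral tegmental area, within the range of 91697 to 126142 on the other arrays. The meningeal sum was 53076 with cocaine and 45003 with saline there, within the range of 40828 to 65114. Of 7 choroid plexus and ependymal markers, Ttr and Enpp2 passed the threshold in some region and Aqp1, Cd24, Igf2, Foxj1 and Kl in none. Ttr, transthyretin, the main secreted protein of the choroid plexus, had 29441 with cocaine and 41154 with saline in the amygdala and 11221 with cocaine and 34312 with saline in the caudate putamen. On the other 6 arrays Ttr lay between 1692 and 4431, so its high arrays were those where Vim was lowest. It was called higher in the amygdala and the caudate putamen (0.401% and 1.76% of all probe sets) and lower in the prefrontal cortex and the nucleus accumbens (3.75% and 0.0765%, with 0.516% called higher in the nucleus accumbens). Enpp2, autotaxin, which oligodendrocytes also make, was 1.51-fold higher in the ventral tegmental area, with 7144 with cocaine and 6960 with saline, against 2802 to 8860 on the other arrays, which overlapped these values. It was 1.90-fold lower in the prefrontal cortex. The part of choroid plexus RNA was not tested.

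**Figure D3:**
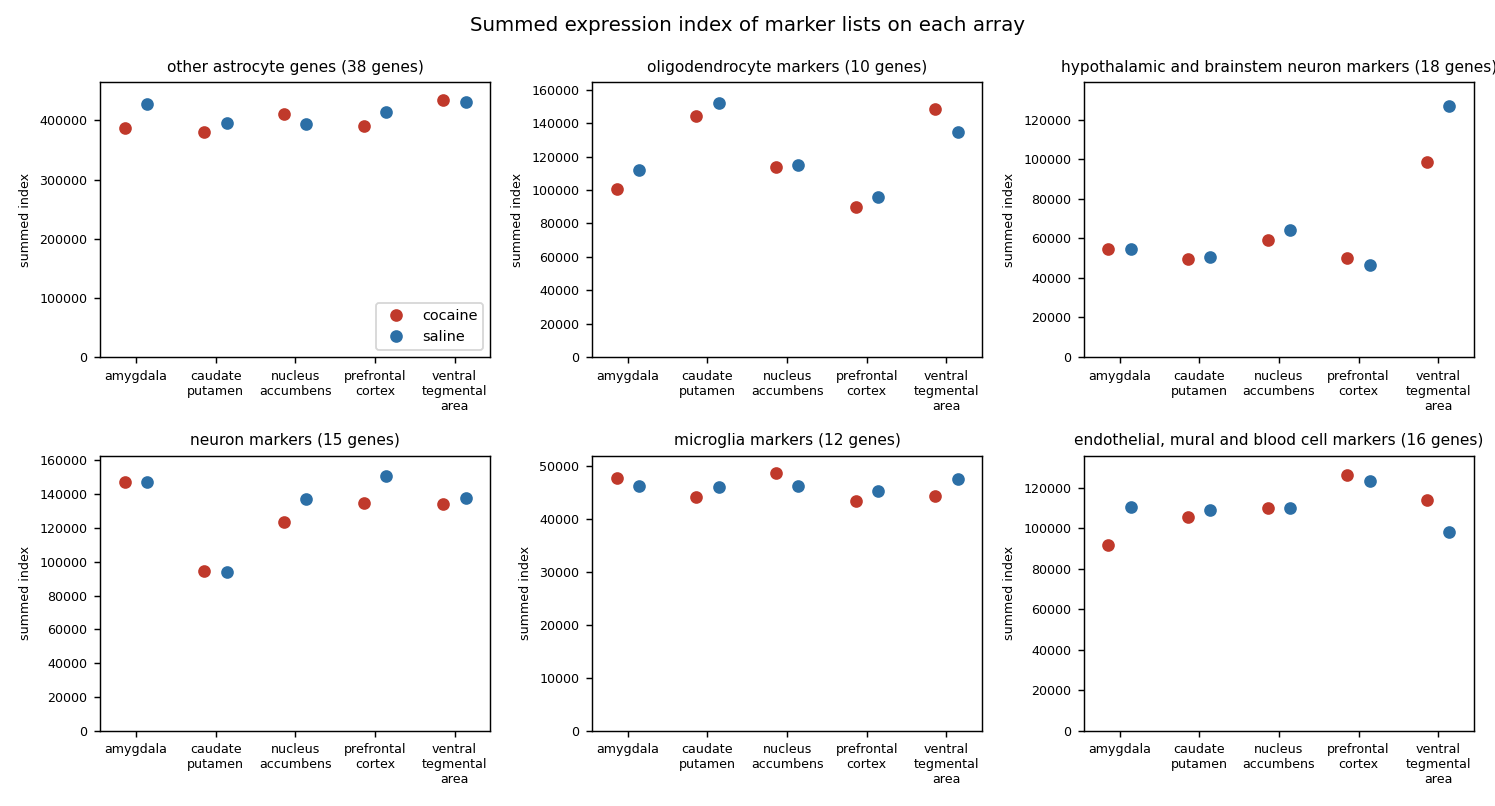
Summed expression index (y axis, linear, from 0), of marker lists on each array, by region (x axis), with cocaine arrays in red to the left of saline arrays in blue. Oligodendrocyte markers are high in the ventral tegmental area and the caudate putamen, hypothalamic and brainstem neuron markers are high in the ventral tegmental area, and neuron markers are low in the caudate putamen.

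For each astrocyte gene the 3 named probe sets with the most similar pattern were taken from 4037 candidates, by the correlation of log2 index over the 10 arrays. The arrays share regions and scaling, so these values describe the arrays and were not tested. Agt was most like Nenf (r = 0.981), Ache (0.976) and Aldh7a1 (0.974). Ache, acetylcholinesterase, had 3926 with cocaine and 4037 with saline in the ventral tegmental area, against 1984 to 2939. Vim was most like Akap12 (0.933), Paip1 (0.909) and Hprt1 (0.907), and Clu was most like Calr (0.929), Canx (0.906) and Sh2b2 (0.865). Calr and Canx encode calreticulin and calnexin, chaperones of the endoplasmic reticulum. S100b was most like Lpar1 (0.966), Mag (0.963) and Apod (0.957). Mag, the myelin-associated glycoprotein, had 8294 with cocaine and 7531 with saline in the ventral tegmental area and 6309 with cocaine and 6627 with saline in the caudate putamen, against 4243 to 5848 elsewhere. Glul was most like Pcsk2 (0.858), Dennd3 (0.850) and Ndrg3 (0.847), Slc1a3 most like Ddost (0.922), Ndufaf3 (0.917) and Por (0.916), and Slc1a2 most like Pcsk7 (0.892), Nos1 (0.877) and Foxj1 (0.877).

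Among the astrocyte genes themselves, Vim and Clu followed each other most closely over the 10 arrays, with r of 0.88. Agt correlated with Vim with r of 0.77 and with Clu with 0.73. The brighter S100b probe set correlated with Glul (M91652complete_seq_g_at) with r of -0.41, and the second S100b probe set correlated with the same Glul probe set with r of 0.36. The second Slc1a2 probe set ran against Agt, with r of -0.82. The brightest gave -0.44 with Agt, and the 2 too dim to be tested gave -0.71 and -0.33. The 2 tested Slc1a2 probe sets correlated with each other with r of 0.25.

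The second comparison asked whether the astrocyte genes changed with cocaine. None of the 15 tested probe sets passed the threshold in limma with region as a block, and 0 of all 5244 did, which is 0% of the probe sets tested. At an unadjusted p under 0.05, 69 of all probe sets passed, 1.32%, and 0 of the 15. The fitted change was lower with cocaine for 13 of the 15, against 54.7% of all probe sets, and the median of the 15 was -0.04 on the log2 scale, against -0.01 over all. The probe sets of one gene share their transcript, so the 15 are not independent. The exceptions were rc_AI638980_at of Slc1a2 and rc_AI146214_at of S100b. The count of lower probe sets ranged between 9 and 15 over the alternative settings, in which the number of probe sets tested also differed. The Slc1a2 probe set rc_AI638980_at was higher with cocaine in all 23 of them.

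The most uniform change was that of Slc1a3. Its brightest probe set was lower with cocaine in each of the 5 regions. It had 12918 with cocaine and 13226 with saline in the amygdala, and 13490 with cocaine and 15422 with saline in the ventral tegmental area, with the other regions in between on the log2 scale. The log2 change was -0.13 ± 0.06 (SE, n = 5 pairs, unadjusted p = 0.0524, limma adjusted p = 0.9999), and the exact two-sided sign-flip test over the 5 regions gave p = 0.0625, the smallest that 5 pairs allow. Of all probe sets with 5 ratios, 1.63% were lower in all 5 regions. The cocaine and saline values overlapped over the whole of the 5 regions. The other 3 Slc1a3 probe sets had changes of -0.09 ± 0.07, -0.06 ± 0.10 and -0.01 ± 0.07.

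Vim and Clu had the largest fitted changes, and both were lower with cocaine in 4 of 5 regions. Vim changed by -0.21 ± 0.11 (log2, SE, n = 5 pairs, limma adjusted p = 0.9999). Its widest difference was in the prefrontal cortex, where it was 1567 with cocaine and 2305 with saline, 1.47-fold lower, and the caudate putamen went the other way, with 1372 with cocaine and 1235 with saline. Clu changed by -0.18 ± 0.11 (limma adjusted p = 0.9999). In the amygdala it was 15376 with cocaine and 23790 with saline, 1.55-fold lower, while in the ventral tegmental area it was 31929 with cocaine and 29497 with saline. Without the amygdala pair, which gave the widest difference, the Clu change was -0.07.

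The remaining genes were close to no change on average, with regions moving apart. Agt changed by -0.04 ± 0.08, with 7652 with cocaine and 9637 with saline in the nucleus accumbens and 6451 with cocaine and 5669 with saline in the prefrontal cortex. The 4 Glul probe sets changed by between -0.15 and -0.02, and each had its lowest ratio in the prefrontal cortex. On rc_AA852004_s_at the prefrontal cortex had 10067 with cocaine and 15478 with saline, 1.54-fold lower, while the amygdala had 9940 with cocaine and 6433 with saline, 1.55-fold higher. The cocaine and saline arrays thus differed in opposite directions in the 2 regions whose cocaine and saline arrays correlated least. The brighter S100b probe set changed by -0.01 ± 0.07 and the brightest Slc1a2 probe set by 0.00 ± 0.07.

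Within a region, 1 cocaine array stood against 1 saline array and no test was possible. A fold of at least 1.5 was reached in 3 cases by astrocyte probe sets, which were Clu (lower) and rc_AA852004_s_at of Glul (higher) in the amygdala and the same Glul probe set (lower) in the prefrontal cortex. The amygdala had 8.89% of all probe sets at or past it, the prefrontal cortex 4.92%, the ventral tegmental area 1.65%, the nucleus accumbens 0.229% and the caudate putamen 0.153%. In the caudate putamen, nucleus accumbens and ventral tegmental area, 0 of the 15 reached it.

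**Figure D4:**
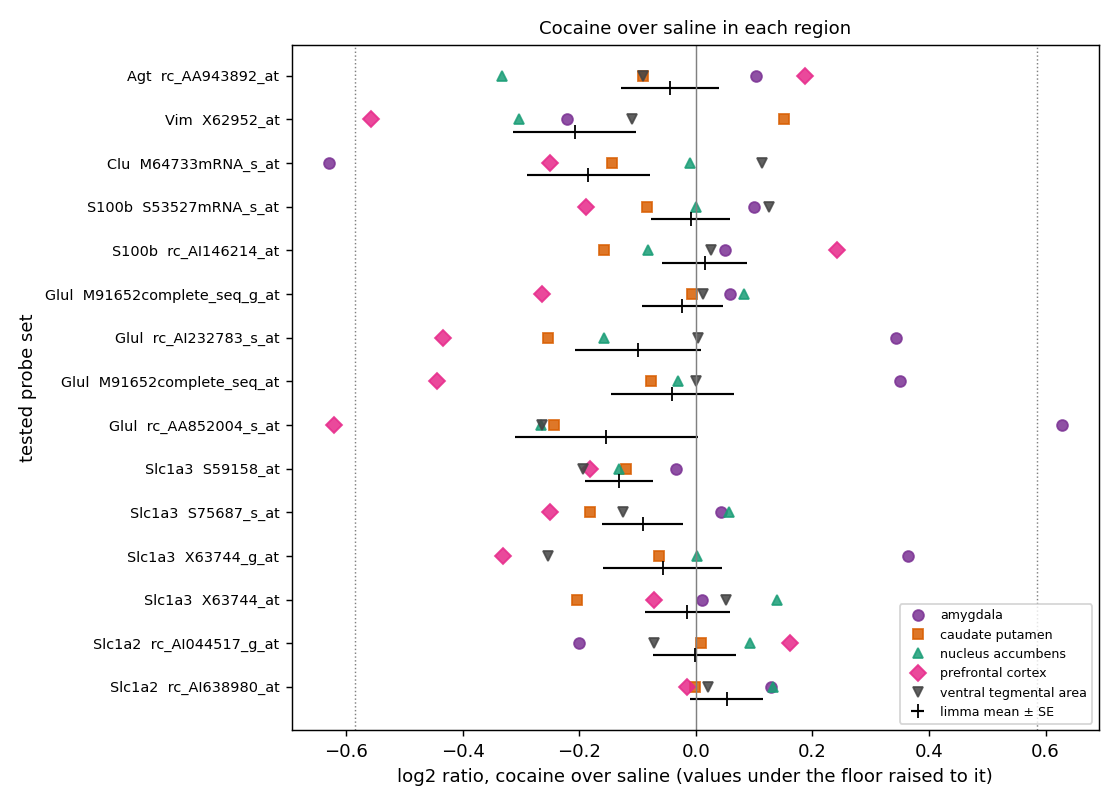
Log2 ratio of cocaine over saline (x axis) in each region (coloured symbols) for the 15 tested astrocyte probe sets (y axis), with the limma mean over the 5 regions and its SE as a black cross below them. Dotted lines mark a fold of 1.5; Clu in the amygdala and rc_AA852004_s_at of Glul in the amygdala and prefrontal cortex lie beyond them.

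The lists set beside the astrocyte genes gave no call with cocaine either. Of 35 tested other astrocyte genes, 26 had a lower and 9 a higher fitted value, with a median log2 change of -0.02 and 0 past the threshold. The largest fitted changes were those of Fgf1, a growth factor (-0.15 ± 0.13), Scg3, a granin of secretory granules (-0.15 ± 0.09), and Sparcl1, a secreted matrix protein (-0.12 ± 0.07). Of 16 tested reactive glia genes, 8 were lower and 8 higher, and the median change was 0.00. Of 10 oligodendrocyte markers 9 had a lower fitted value (median -0.04), and of 14 neuron markers 12 did (median -0.04). Over all probe sets, 54.7% had a lower fitted value. Other lists did not lean the same way. Lower and higher counts were 4 and 4 for microglia, 7 and 7 for endothelial, mural and blood cell, and 4 and 6 for meningeal markers. They were 9 and 9 for hypothalamic and brainstem neuron markers and 4 and 3 for choroid plexus and ependymal markers. By function they were 6 and 3 for glutamate handling, 2 and 7 for other intermediate filament and 3 and 3 for renin-angiotensin genes.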

How the data were processed

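RNA of 10 rat brain samples had been measured on single-colour oligonucleotide arrays. The deposited values are linear intensities, namely expression indices that the authors computed with dChip, per the labels. Its version, its model and how arrays were scaled were not given in the sources used here. Of 8799 probe sets, 59 control probe sets were left out. The annotation table gave 1 gene symbol for 7006 of the other 8740, several for 308 and none for 1426, and only probe sets with 1 symbol were named. The 593 exact zeros were treated as missing, which differs from treating them as low values. The floor was an index of 1028, the 20th percentile of nonzero values. Lower values were set to the floor and log2 was taken, with no further normalization. The upper 60% of probe sets by mean index were tested, 5244 with cocaine and 5232 among regions, where every region needed a value.

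Groups came from the sample labels. Tests used limma 3.58.1 in R 4.3.3 (lmFit and eBayes with an intensity trend), with p-values adjusted over all tested probe sets by the Benjamini-Hochberg method at a threshold of 0.05. Cocaine was compared with saline with region as a block, and regions were compared with treatment as a term, each with 4 residual degrees of freedom. The p-values of pairs of regions were adjusted over all 10 pairs together. Within a region, 1 array stood against 1, so only ratios were taken. An SD of a region would include any treatment difference, so the values of both arrays are given. The fits were tested on simulated data. For a gene of a list, the brightest probe set on average was used. Named were all astrocyte probe sets and for each gene the 3 probe sets most like it. From the lists, up to 5 genes with the smallest F-test p were named (up to 3 in lists other than astrocyte genes). Up to 3 astrocyte genes with the largest cocaine change were named too. Th and Slc6a3 were named to check the regional labels, and Cd24, Igf2 and Kl to complete the choroid plexus and ependymal list. The other list genes named were singled out after their values were seen because they passed a test. The astrocyte genes and all lists were chosen with earlier results of these data known. Alternatives covered the zeros, floor, filter, scaling, intensity trend, region block, choice of probe set and each array or region pair left out. Promoter windows are RefSeq's on GRCr8, and 6 of the 8 measured genes had one.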

Additional observations from a re-analysis of the deposited data

Results flagged for a closer look

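For Glul (M91652complete_seq_g_at) the log2 ratio of cocaine over saline in the prefrontal cortex, -0.26, lay far below those of the other 4 regions, which were between -0.01 and 0.08. The 15 tested astrocyte probe sets were each looked at for such a region. Chance marks about 1 in 20 groups, so 1 of 15 can arise by chance. That rate is rough here, since the 15 share their arrays and 4 of them read Glul. The prefrontal arrays were those with 226 zeros with cocaine and 18 with saline, and the part of this in the ratio was not tested.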

How the results depend on the processing

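With 1 array per region and treatment, each value has little replication, and the array number limits precision. The direction of every regional call held in each alternative in which its probe set was tested. In the ventral tegmental area Agt kept its call in all 17 alternatives, and Vim in the 15 that tested it. Those 15 do not cover leaving out an array of the ventral tegmental area itself. The count of called astrocyte probe sets differed from the values in the report as follows. When zeros took the floor value, it was 2 in the F test, 2 in the ventral tegmental area, 0 in the amygdala, 1 in the caudate putamen and 6 among pairs, while within-region folds past 1.5 numbered 5. With no filter on dim probe sets it was 1 in the F test, 0 in the amygdala, caudate putamen and prefrontal cortex, 2 in the ventral tegmental area and 5 among pairs. With median scaling it was 2 in the F test, 3 in the ventral tegmental area, 0 in the amygdala, 1 in the caudate putamen and 7 among pairs. With quantile normalization it was higher in the F test (4), the caudate putamen (3), the prefrontal cortex (2) and among pairs (13), and lower in the amygdala (0) and the ventral tegmental area (3). With a lower floor or none it was 11 among pairs, and with no intensity trend 11 among pairs and 3 in the ventral tegmental area. Leaving out 1 array gave 1 to 8 in the F test, 4 to 33 among pairs, 1 to 5 in the ventral tegmental area, 0 to 2 in the nucleus accumbens, 0 to 6 in the caudate putamen, 0 to 2 in the amygdala and 0 to 4 in the prefrontal cortex. Over all probe sets the F test called 148 to 1202 with 1 array left out. It called 184 to 482 otherwise, against 487 in the report. Likewise, pairs gave 566 to 4858 (803 to 1886 otherwise), against 1903. The ventral tegmental area gave 120 to 941 (350 to 577), against 581, and the nucleus accumbens 3 to 71 (10 to 31), against 31. The caudate putamen gave 22 to 511 (128 to 216), against 216, and the amygdala 0 to 382 (3 to 32), against 32. The prefrontal cortex gave 65 to 653 (74 to 263), against 268. The cause of these shifts was not tested. No alternative called an astrocyte probe set with cocaine (0 in 23). The cocaine comparison paired the arrays of a region by a region block, and without that block the count was also 0. No group has more than 1 sample, so no replicate number could serve as a block.

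Cocaine log2 changes near 0 turned sign. With quantile normalization they were 0.031 for Glul M91652complete_seq_g_at, 0.0098 for Glul M91652complete_seq_at, 0.0078 for Slc1a2 rc_AI044517_g_at and 0.022 for S100b S53527mRNA_s_at. With an array or a region pair left out they ranged between -0.10 and 0.027 for Agt, -0.049 and 0.037 for Glul M91652complete_seq_g_at, -0.14 and 0.061 for Glul M91652complete_seq_at, and -0.043 and 0.048 for Slc1a2 rc_AI044517_g_at. The ranges were -0.16 to 0.012 for Slc1a3 X63744_g_at, -0.053 to 0.033 for Slc1a3 X63744_at, -0.043 to 0.036 for S100b S53527mRNA_s_at and -0.041 to 0.059 for S100b rc_AI146214_at.

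Other probe sets of a gene differed in sign from its brightest one. For cocaine, Slc1a2 was 0.053 and S100b 0.015. For regions, Glul in the ventral tegmental area was 0.031 and 0.036, Slc1a2 in the amygdala 0.051, and S100b 0.17 in the prefrontal cortex and -0.084 in the caudate putamen. For Slc1a3 the nucleus accumbens had -0.037 and -0.095, the amygdala 0.11, the caudate putamen 0.097 and the prefrontal cortex 0.047.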
